A study of Homo sapiens with 12 samples.

Results

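The genes described here are small noncoding RNA genes measured in HCT116, a colorectal carcinoma cell line in wide use: the RNAs of the signal recognition particle, 7SK, telomerase, the Cajal bodies and the nucleolus, the brain cytoplasmic RNA BCYRN1, and pseudogenes of these. They are the rows of the deposited FPKM table that GENCODE 29 types as misc_RNA, snoRNA, scaRNA, snRNA or scRNA, that lie outside the mitochondrial chromosome and that reach 1 FPKM in at least 2 of the 12 libraries. FPKM is a level scaled to the length of the gene and to the fragments sequenced. The rule left 53 members of 5105 rows of these 5 types, in a table of 58174 genes. The members were thus chosen by their FPKM, and that they reach 1 FPKM is no finding.

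Dolastatin 15, a peptide of marine origin that stops microtubules from forming by binding tubulin, was given to the cells at 20 nM or 100 nM for 16 h or 24 h, and controls received solvent for the same times. All cultures held 0.25% DMSO and 5% serum. There were 12 libraries, 2 for each of the 6 groups: 1 and 2 had 20 nM, 3 and 4 had 100 nM and 5 and 6 had solvent at 16 h, and 7 and 8 had 20 nM, 9 and 10 had 100 nM and 11 and 12 had solvent at 24 h. Nothing says that the 2 samples of a group were grown separately, so the p-values weigh differences against a spread between samples that may be only technical. The 5 epithelial markers EPCAM, KRT8, KRT18, CDH1 and CLDN4 were at 2.91 to 458 FPKM in every library. Of 9 markers of blood, fibroblast, endothelial and liver cells, COL1A1 was the highest, at 1.44 to 4.34 FPKM.

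Most of these RNAs are made by RNA polymerase III or cut from introns, and most end without a poly(A) tail. The 7SL RNA is the scaffold of the signal recognition particle, which brings ribosomes to the endoplasmic reticulum. The 7SK RNA holds the elongation kinase P-TEFb inactive, small nucleolar and Cajal body RNAs guide modification of ribosomal and spliceosomal RNA, and the telomerase RNA carries the template for telomere repeats. The libraries were made from poly(A)-selected RNA, which keeps such transcripts poorly, so a level here depends on how much of an RNA passed that step. In bulk RNA, fewer cells of a type and less RNA per cell cannot be told apart.

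By type, 42 members were misc_RNA (of 2212 rows), 6 snoRNA (of 943), 3 scaRNA (of 49), 1 snRNA (of 1900) and 1 was the only scRNA. The misc_RNA members were RN7SL1, RN7SL2 and RN7SL3, 24 RN7SL pseudogenes, 6 genes named RF00017 after the 7SL RNA family, 4 RN7SK pseudogenes and 5 others. In the annotation, 12 members lay in exons of another gene on the same strand, 2 partly in exons, 20 in introns, 11 antisense to a gene and 8 between genes. Only 10 of the 53 were above 0 in all 12 libraries, 38 were at 0 in at least 6, and 21 reached 1 FPKM in exactly 2. At the threshold, the second highest value of those 21 had a median of 1.34 FPKM, while the 57 rows that reached 1 FPKM in a single library had a median of 1.70 there, SNORA73A being the highest at 22.6 FPKM in library 2. The members together held 0.0319% to 0.140% of the FPKM sum of a library.

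The rows listed above 0 were the longer ones. None of the 3782 rows of up to 190 bases was above 0 in any library, against 124 of the 1323 longer rows. Most genes of these types are short: 861 of 943 snoRNA, 1858 of 1900 snRNA, 43 of 49 scaRNA and 1020 of 2212 misc_RNA rows were of 190 bases or less. All 1879 miRNA, 51 rRNA and 1 vaultRNA rows were at 0 as well. The data therefore hold no measurement of the common spliceosomal RNAs or of most snoRNAs.

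A level in FPKM also stands for few fragments in genes as short as these. Low values of genes with 1 annotated transcript fall on steps that stand for whole fragments, and a fit to the steps of genes outside the list gave 28400000 to 41100000 fragments per library with mean lengths of 307 to 346 bases. Between 87.8% and 90.5% of those low values lay within 0.1 of a whole fragment, where 20% would by an even spread, but the steps are less clear where the members lie: 59.1% to 85.7% of low values under 300 bases and 43.8% to 85.7% of the members' own, from 9 to 16 values a library. A fragment was then worth 15.5 to 39.7 FPKM in a gene of 200 bases, 1.00 to 2.21 in one of 300 and 0.26 to 0.47 in one of 400. It was worth least in library 2 at each of these lengths, so the same FPKM stands for different evidence in different libraries. Fragment numbers below are these estimates, and the 3 members with several transcripts (SNORD3A, SNORD3B-1 and SNORD91B) have none.

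**Figure D1:**
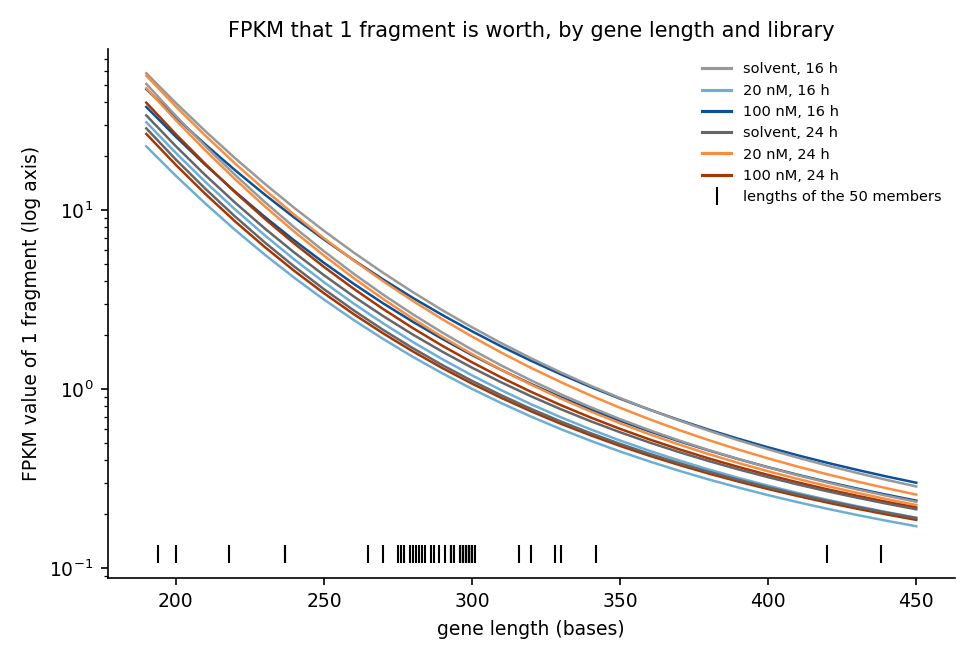
FPKM value of 1 fragment (log axis) against gene length in bases, with 1 line per library coloured by group; ticks at the bottom are the lengths of the 50 members with 1 annotated transcript. The lines fall from 15.5 to 39.7 FPKM at 200 bases to 0.26 to 0.47 FPKM at 400 bases.

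Of the 50 members with an estimate, 37 had at most 3.5 fragments in every library. These 37, among them 22 RN7SL pseudogenes, all 6 RF00017 genes and all 4 RN7SK pseudogenes, gave 112 values above 0 out of 444. Of the 112, 71 stood for 1 fragment, 18 for 2 and 3 for 3, within 0.1. A further 3 members had up to 10 fragments in their highest library, and 10 had more. RN7SL2, RN7SL1 and RN7SK alone had over 10 in all 12.

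**Figure D2:**
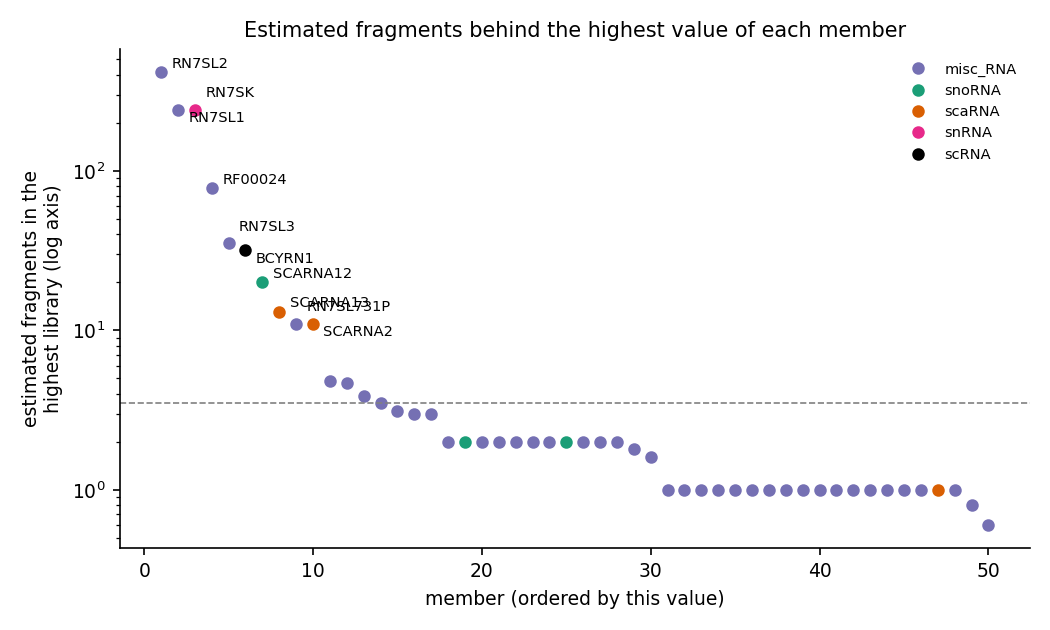
Estimated fragments in the highest library (log axis) for each of 50 members in falling order, coloured by gene type; the dashed line is at 3.5 fragments. The 37 points up to the line and the 10 named members far above it show how few RNAs carry most of the evidence.

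BCYRN1 (ENSG00000236824) makes the BC200 RNA, a cytoplasmic regulator of translation that arose from an Alu repeat, which itself derives from 7SL. It is annotated at 200 bases, antisense to AC106869.1, and shares no window of 100 bases with another annotated transcript.

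At 16 h BCYRN1 was listed at 0 in both solvent libraries, at 82.7 and 436 FPKM with 20 nM and at 229 and 232 FPKM with 100 nM. At 24 h it was at 610 and 719 FPKM in solvent, listed at 0 in both 20 nM libraries, and at 395 and 430 FPKM with 100 nM. Both libraries of a group were at 0 or both were above it. The values above 0 stood for 4.0 to 31.8 estimated fragments. For 100 nM at 24 h, the one comparison with solvent in which every library is above 0, the log2 change was -0.68 ± 0.57 (SE, adjusted p = 0.386, limma). The other 3 met the threshold (adjusted p = 7.22e-05 and 3.09e-05 for 20 nM and 100 nM at 16 h and 2.84e-05 for 20 nM at 24 h), as did the solvent groups of the 2 times (0.000301), but each sets libraries at 0 against libraries above it, and no direction or fold is read from them for the reason that follows.

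The 4 libraries at 0 were those in which a gene of 200 bases had an estimated effective length below 1. The effective length is the number of places where a fragment of the library's lengths can start in the transcript, and it divides the FPKM. It was 0.79, 0.89, 0.80 and 0.93 bases in libraries 5, 6, 7 and 8, and 1.07 to 1.57 in the 8 libraries that list the gene. The length at which the estimate reaches 1 was 189 to 207 bases by library. Of 7349 to 7690 genes with 1 transcript below that length, 1 was listed in each library, the pseudogene ATP5F1EP2 of 156 bases (16.5 to 38.9 FPKM in all 12). From that length to just under the 207 bases of MT-ATP8, which is listed in all 12, the genes listed other than BCYRN1 were 4, 3, 3 and 1 in libraries 2, 10, 11 and 12 and none in the other 8. The fragment lengths of libraries 5 to 8 and the groups solvent at 16 h and 20 nM at 24 h cannot be told apart in this gene, so the zeros give no measure of the RNA in those groups.

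**Figure D3:**
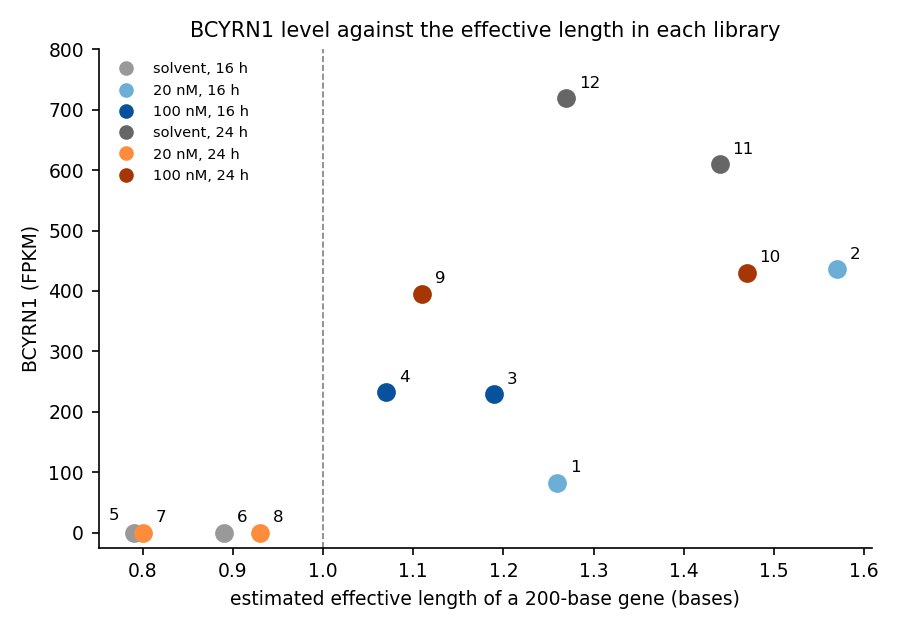
BCYRN1 level (FPKM) against the estimated effective length of a gene of 200 bases, 1 point per library, numbered and coloured by group; the dashed line is at 1 base. The 4 libraries left of the line (5, 6, 7 and 8) are at 0 FPKM and the 8 right of it at 82.7 to 719 FPKM.

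RF02164 (ENSG00000276443), within an exon of the long noncoding RNA PVT1, was the shortest member. It was at 72.6 FPKM in library 2 and at 94.2 and 109 FPKM in the solvent libraries at 24 h, and listed at 0 in the other 9. Each value stood for 3.7 to 3.9 estimated fragments, and all of its 100-base windows are also in PVT1. Its estimated effective length was 1.01 to 1.25 in libraries 2, 10, 11 and 12 and 0.63 to 1.0 in the other 8. At 24 h both treated groups met the threshold against solvent (adjusted p = 0.00980 for 20 nM and 0.00809 for 100 nM, limma). But the treated libraries 7, 8 and 9 had an effective length of 0.63, 0.73 and 0.87 and only library 10 one above 1 (1.16). No difference is read from these zeros, also because RF02164 would not have reached 1 FPKM in 2 libraries without the solvent libraries of 24 h. PVT1 itself was at 24.0 and 26.4 FPKM in those solvent libraries and at 34.5 to 38 FPKM in the 4 treated ones.

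RN7SL1, RN7SL2 and RN7SL3 on chromosome 14 are the 7SL RNA genes, near-identical copies among which fragments may be divided. Over their length RN7SL1 and RN7SL2 were identical at 98.7% of bases, RN7SL1 and RN7SL3 at 97.7% and RN7SL2 and RN7SL3 at 96.3%.

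At 16 h RN7SL2 was at 230 and 190 FPKM in solvent, 247 and 418 with 20 nM and 283 and 214 with 100 nM. The 24 h values were 131 and 92.7 FPKM in solvent, 88.9 and 168 with 20 nM and 130 and 123 with 100 nM. The 24 h libraries were all below the 16 h libraries, and at each time some treated libraries lay among the solvent values. RN7SL1 ran from 92.8 to 246 FPKM at 16 h and from 60.1 to 115 FPKM at 24 h, and RN7SL3 from 11.4 to 35.9 and from 4.49 to 24.1 FPKM. Summed, the 3 genes were at 303 to 700 FPKM at 16 h and 162 to 295 FPKM at 24 h. None of them passed the test in any of the 4 comparisons with solvent: the log2 changes of RN7SL2 were 0.62 ± 0.33, 0.23 ± 0.33, 0.15 ± 0.33 and 0.20 ± 0.33 (SE, adjusted p = 0.230 to 0.761, limma) for 20 nM and 100 nM at 16 h and 20 nM and 100 nM at 24 h. For RN7SL3 the dose comparison, 100 nM minus 20 nM over both times, gave -0.98 ± 0.32 (adjusted p = 0.138). The solvent groups did not pass either (RN7SL2, 24 h minus 16 h: -0.92 ± 0.33, adjusted p = 0.12).

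RN7SK (ENSG00000283293, chr6:52995621-52995948, GRCh38, + strand), which makes the 7SK RNA, was at 32.1 and 27 FPKM in solvent at 16 h, 49.5 and 36.9 with 20 nM and 44.7 and 36.3 with 100 nM. By 24 h it was at 21.7 and 11.1 FPKM in solvent, 41.9 and 220 with 20 nM and 42.8 and 38.8 with 100 nM. All 8 treated libraries lay above all 4 solvent libraries, and library 8 stood apart from the other 7. In group means, solvent was at 29.6 ± 3.56 and 16.4 ± 7.45 FPKM at 16 h and 24 h (SD, n = 2) and 100 nM at 40.5 ± 5.95 and 40.8 ± 2.79. RN7SK rose with 20 nM at 24 h (log2 change 2.55 ± 0.61, adjusted p = 0.0143) and over the 4 treated groups together (1.21 ± 0.38, adjusted p = 0.0291). Without library 8 the first was 1.37 (adjusted p = 0.0214), and without library 12 it did not pass (adjusted p = 0.0892). Neither call held with no filter on low values. The mean over treated groups did not pass without library 1, 3, 5, 6, 9 or 12 (adjusted p = 0.0534 to 0.115). At the other 3 comparisons RN7SK gave 0.52 and 0.44 (16 h) and 1.33 (100 nM, 24 h), with adjusted p = 0.604, 0.653 and 0.126. The estimated fragments summed over the 2 libraries were 53 in solvent and 129 and 77 with 20 nM and 100 nM at 16 h, and 46, 278 and 110 at 24 h. At 16 h a fragment of a gene of 330 bases was worth 1.24 and 0.93 FPKM in solvent and 0.70 and 0.60 FPKM with 20 nM. The sums thus show the evidence behind each group and are not compared as levels. All of the gene's 100-base windows also occur in RF00100 or in RN7SK pseudogenes, so fragments may be divided among them.

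**Figure D4:**
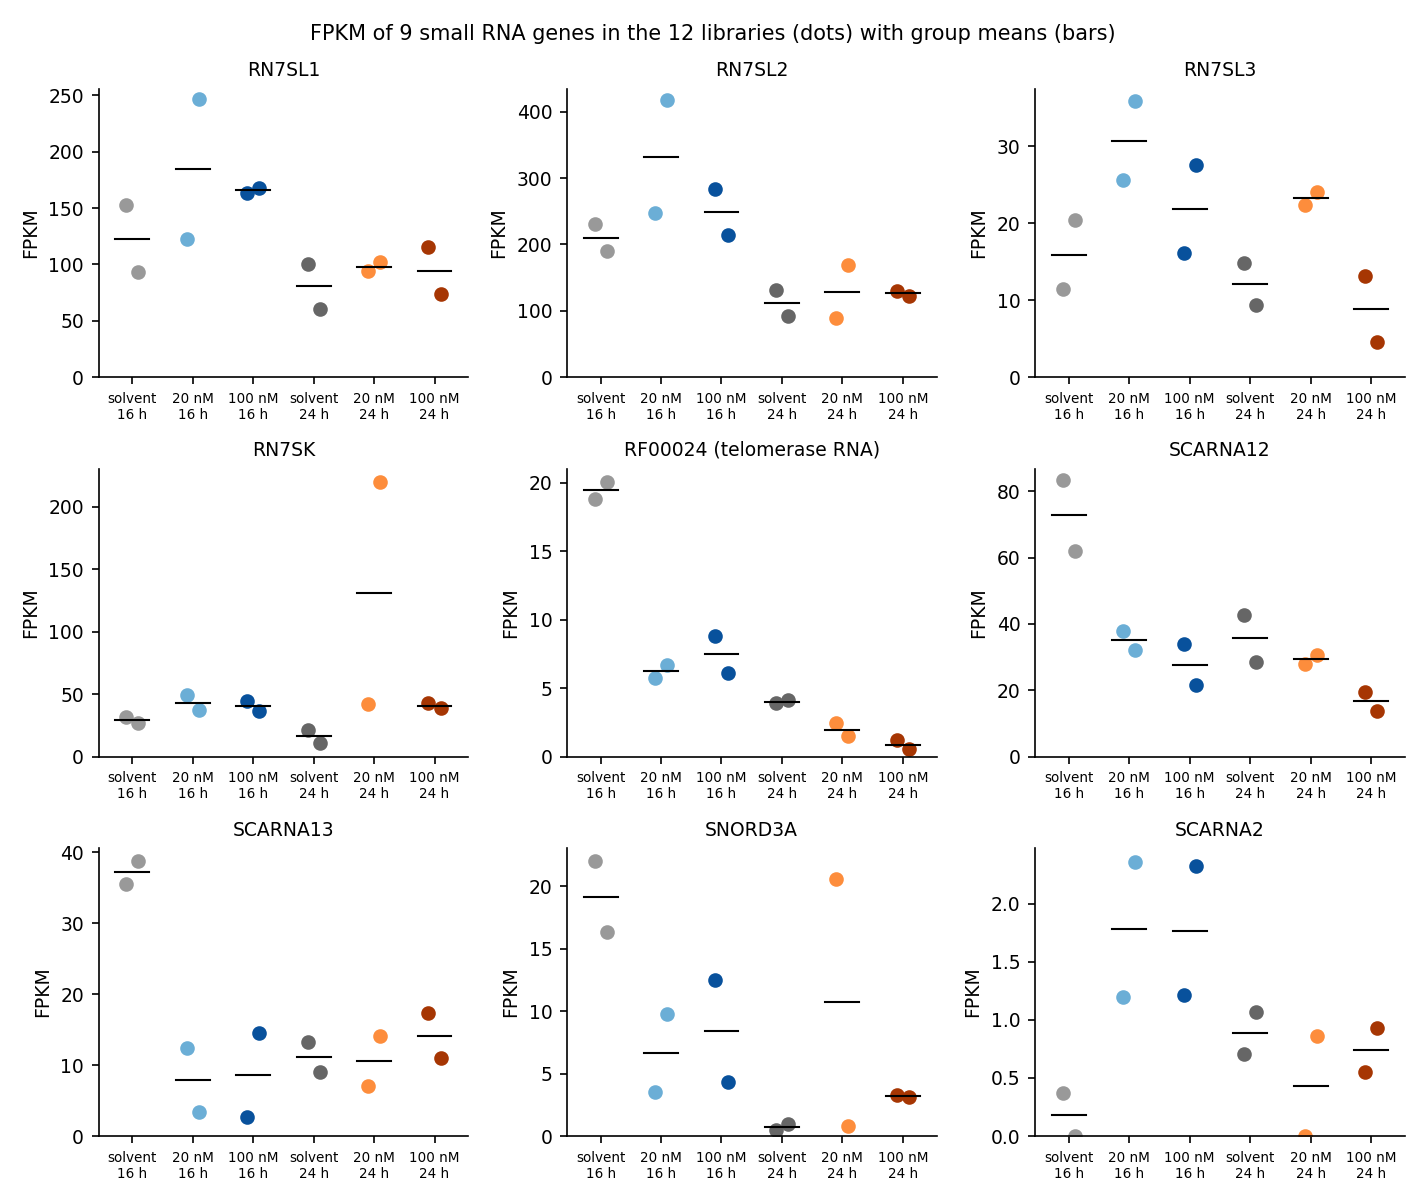
FPKM of 9 members (1 panel each, own axis from 0) in the 12 libraries, with dots for libraries and bars for the mean of each group of 2. RF00024 was highest in solvent at 16 h, RN7SK was above both solvent groups in every treated library, and RN7SL2 was lower in each 24 h group than in each 16 h group.

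The member called lower in all 4 comparisons with solvent was RF00024 (ENSG00000277925), a second annotation of the telomerase RNA on chromosome 3 (chr3:169764610-169765047, - strand, 438 bases). Its sequence is identical to bases 14 to 451 of the TERC transcript of 541 bases. Its first 120 bases (chr3:169764928-169765047) are shown to identify it: the capitals, from base 33, are the template copied into telomere repeats, letters that also occur in 26 of 206694 annotated transcripts.
RF00024: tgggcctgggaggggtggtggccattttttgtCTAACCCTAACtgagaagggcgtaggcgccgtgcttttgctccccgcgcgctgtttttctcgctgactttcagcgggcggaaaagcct

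At 16 h RF00024 was at 18.8 and 20.1 FPKM in solvent, 5.74 and 6.72 with 20 nM and 8.84 and 6.12 with 100 nM. At 24 h it was at 3.88 and 4.12 FPKM in solvent, 2.42 and 1.48 with 20 nM and 1.19 and 0.55 with 100 nM. Treated libraries lay below solvent libraries of the same time throughout, and solvent at 24 h lay below every library of 16 h. RF00024 fell by 1.5 ± 0.21 and 1.29 ± 0.21 on the log2 scale with 20 nM and 100 nM at 16 h (SE, adjusted p = 0.00183 and 0.00278, limma), and by 0.78 ± 0.21 and 1.44 ± 0.21 at 24 h (adjusted p = 0.0230 and 0.00118). The decrease with 20 nM at 24 h did not pass without library 8, 11 or 12 (adjusted p = 0.0793 to 0.124) or with no filter on low values. These changes are on the log2(FPKM + 1) scale, which understates change at levels this low. The fall between the solvent groups, from 19.4 ± 0.891 to 4.0 ± 0.170 FPKM (SD, n = 2), was -2.03 ± 0.21 (adjusted p = 0.00464). The summed estimated fragments were 138 in solvent (95% exact Poisson interval 116 to 163, counting error only), 64 (49.3 to 81.7) with 20 nM and 52 (38.8 to 68.2) with 100 nM at 16 h, and 36 (25.2 to 49.8), 14 (7.65 to 23.5) and 8 (3.45 to 15.8) at 24 h. At 16 h a fragment of a gene of 440 bases was worth 0.31 and 0.25 FPKM in solvent and 0.21 and 0.18 FPKM with 20 nM. The sums thus show the evidence behind each group and are not compared as levels. TERC was at 0 to 1.45 FPKM and not called. With its value added, the order of the groups was the same: 19.7 and 21.2 FPKM in solvent and 6.25 to 9.13 FPKM with drug at 16 h, and 4.14 and 4.41 against 1.15 to 2.93 FPKM at 24 h.

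Among Cajal body RNAs, which guide modification of spliceosomal RNA, SCARNA12 (chr12:6967337-6967606, - strand) and SCARNA13 (chr14:95533355-95533629, - strand) were the best covered. They are printed because they differ in the motif marked and in what else holds their sequence. Capitals mark a C-box-like TGATGA within the first 30 bases of SCARNA12 and an ACA 3 bases before the end of SCARNA13. These motifs alone do not set the box type of either RNA. Of 1004 annotated snoRNA and scaRNA transcripts, 27.7% held the first and 30.6% the second at that place. SCARNA12 lies partly in an exon of PHB2, a mitochondrial prohibitin gene, and 81.9% of its 100-base windows occur in PHB2 transcripts. SCARNA13 lies in an intron of the snoRNA host gene SNHG10 and shares none.
SCARNA12: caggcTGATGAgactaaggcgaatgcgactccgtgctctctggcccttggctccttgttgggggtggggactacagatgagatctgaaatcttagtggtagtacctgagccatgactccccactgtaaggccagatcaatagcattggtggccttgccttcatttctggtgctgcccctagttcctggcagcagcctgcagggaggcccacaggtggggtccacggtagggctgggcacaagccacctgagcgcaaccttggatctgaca
SCARNA13: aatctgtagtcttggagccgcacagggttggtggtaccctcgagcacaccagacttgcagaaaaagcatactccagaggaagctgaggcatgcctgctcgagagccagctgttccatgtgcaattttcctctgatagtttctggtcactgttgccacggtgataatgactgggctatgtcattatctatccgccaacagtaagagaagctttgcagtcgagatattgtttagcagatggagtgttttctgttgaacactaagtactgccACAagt

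At 16 h SCARNA12 was at 83.4 and 62.0 FPKM in solvent, 37.9 and 32.3 with 20 nM and 33.8 and 21.5 with 100 nM. The later libraries had 42.8 and 28.7 FPKM in solvent, 28.0 and 30.8 with 20 nM and 19.5 and 13.7 with 100 nM. The groups did not overlap except for 20 nM at 24 h. SCARNA12 fell by 1.02 ± 0.26 and 1.38 ± 0.26 at 16 h (log2, SE, adjusted p = 0.0275 and 0.00555) and by 1.05 ± 0.26 with 100 nM at 24 h (adjusted p = 0.0139). The first did not pass without library 1, 2 or 5 (adjusted p = 0.0792 to 0.157) or with no filter, and the last without library 10 or 11 (0.0925 to 0.0948). These values stood for 5.3 to 20.0 estimated fragments per library, summing to 37 in solvent and 33 and 16 with 20 nM and 100 nM at 16 h. At 20 nM and 16 h the intervals of the fragments overlapped (95% exact Poisson, 26.1 to 51.0 in solvent and 22.7 to 46.3 with drug), while a fragment of a gene of 300 bases was worth 2.21 and 1.66 FPKM in the solvent libraries and 1.19 and 1.00 FPKM in the treated ones. PHB2 was at 574 to 653 FPKM and its log2 changes against solvent were -0.02 to 0.14, the highest with 20 nM at 24 h (adjusted p = 0.0208).

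SCARNA13 was at 35.5 and 38.8 FPKM in solvent at 16 h, 12.4 and 3.39 with 20 nM and 2.68 and 14.5 with 100 nM. The 24 h libraries ran from 7.07 to 17.3 FPKM and the groups overlapped. It fell at 16 h by 2.31 ± 0.68 with 20 nM and by 2.33 ± 0.68 with 100 nM (log2, SE, adjusted p = 0.0473 and 0.0371). Each call ended in 7 of 12 fits that left out 1 library (without 2, 5, 6, 9, 10, 11 or 12 for 20 nM, adjusted p = 0.0647 to 0.255, and without 3, 5, 6, 9, 10, 11 or 12 for 100 nM, 0.0509 to 0.202). With no filter, a constant prior or a robust prior neither call held, nor did that at 20 nM with a pseudocount of 0.1 or 0.5. The summed fragments were 22 (95% exact Poisson interval 13.8 to 33.3) in solvent, 8 (3.45 to 15.8) with 20 nM and 5 (1.62 to 11.7) with 100 nM. These sums are not compared as levels, since the FPKM that a fragment is worth differs between libraries. SNHG10 gave log2 changes of 0.21 and -0.15 at 16 h (adjusted p = 0.765 and 0.834, limma).

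SCARNA2, an intronless guide RNA of 420 bases on chromosome 1, was at 0.37 and 0 FPKM in solvent at 16 h, 1.2 and 2.36 with 20 nM and 1.21 and 2.32 with 100 nM. Its 24 h values ran from 0 to 1.07 FPKM with overlapping groups. It was called higher with both doses at 16 h (adjusted p = 0.0395 and 0.0321, limma), with no fold since a solvent library is at 0. Without the treated libraries of 16 h SCARNA2 would not have reached 1 FPKM in 2 libraries. The filter thus favoured this difference, and no rise is read from the calls. The 16 h libraries held 1 fragment in solvent (95% exact Poisson interval 0.0253 to 5.57), 16 with 20 nM (9.15 to 26.0) and 10 with 100 nM (4.80 to 18.4). These sums, too, are not compared as levels. The call at 20 nM ended in 8 of 12 fits without 1 library (without 1, 2, 5, 6, 9, 10, 11 or 12, adjusted p = 0.0546 to 0.212) and that at 100 nM without 4, 5 or 6 (0.0611 to 0.171), and both with a pseudocount of 0.1 or no filter. All of its 100-base windows lie also in AL356488.2, which was above 0 in libraries 6 and 7 only, the 2 in which SCARNA2 is at 0. AL356488.2 was at 1.13 FPKM in library 6, a solvent library of 16 h, and at 1.56 FPKM in library 7. Fragments may thus be divided between the genes, and the difference at 16 h may depend on that division. SCARNA6 and SCARNA10 had 1 or 2 fragments, within 0.2, where they were above 0.

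SNORD3A and SNORD3B-1 are copies of the U3 RNA, which takes part in cutting the ribosomal RNA precursor, and 75.5% and 62.8% of their windows are shared with other U3 copies. SNORD3A was at 22.0 and 16.4 FPKM in solvent at 16 h, 3.54 and 9.81 with 20 nM and 12.5 and 4.33 with 100 nM. At 24 h it was at 0.52 and 0.94 FPKM in solvent, 20.6 and 0.81 with 20 nM and 3.31 and 3.17 with 100 nM. Libraries 7 and 8 of 1 group thus lay far apart, and no comparison with solvent passed (log2 changes -1.51, -1.23, 1.87 and 1.30, adjusted p = 0.177 to 0.394). SNORD3B-1 reached 1 FPKM in treated libraries only, at 0.50 to 1.24 FPKM in the 8 treated and 0.22 to 0.38 in the 4 solvent libraries, and is described with no test for that reason.

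SNORD17, a box C/D RNA in an intron of SNX5, was at 22.5 and 8.85 FPKM in solvent at 16 h, at 5.82 FPKM in library 1 and at 0 elsewhere. Those values stood for 2, 1 and 1 fragments. Without that solvent pair SNORD17 would not have reached 1 FPKM in 2 libraries, so a difference at 16 h was built in and no test is given there. The summed fragments at 16 h were 3 in solvent (95% exact Poisson interval 0.619 to 8.77), 1 with 20 nM (0.0253 to 5.57) and 0 with 100 nM (0 to 3.69). SNORD91B was at 7.25 FPKM in library 2 and 18.1 in library 5 and at 0 in the other 10.

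Among the pseudogenes and RF00017 genes, calls rested on few fragments. RF00017 in an exon of WDR73 (ENSG00000277578, chr15:84642487-84642763, - strand) was at 12.1 and 10.0 FPKM in solvent at 16 h and at 1.22, 0, 0 and 2.26 FPKM in libraries 1 to 4. It was called lower with 20 nM and 100 nM (adjusted p = 0.00826 and 0.00936, limma), on at most 3.5 fragments per library. All its windows lie also in WDR73, at 20.0 to 30.2 FPKM. WDR73 was at 22.15 and 23.58 FPKM in solvent at 16 h and at 24.82, 24.32, 30.15 and 29.6 FPKM in libraries 1 to 4. Fragments may be divided between the genes, and whether the difference depends on that division was not tested. The calls ended without library 2 or 5 (0.0541 to 0.0618) and without library 5 (0.0562), and both with a pseudocount of 0.1. RF00017 on chromosome 11 (ENSG00000280502) was called lower with 20 nM at 24 h (adjusted p = 0.0101) on 1 and 2 fragments in solvent and none with drug, and not without library 12 (0.0686). RN7SL608P, partly in an exon of PAFAH1B1, was at 3.2 and 2.54 FPKM with 20 nM at 24 h and at 3.58 FPKM in solvent library 5, 1 fragment each. It was at 0 elsewhere. Without that treated pair it would not have reached 1 FPKM in 2 libraries, so a difference there was built in and no test is given.

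RN7SL333P, which reached 1 FPKM in solvent only, was at 2.37 and 1.77 FPKM in libraries 5 and 6, or 1 fragment each, and at 0 elsewhere. RN7SL657P, in an exon of MRPL20, was at 1.55 and 1.18 FPKM in the same libraries and 0.72 in library 9. RN7SL75P was at 1.80, 2.14 and 1.59 FPKM in the treated libraries 1, 9 and 10, 1 fragment each. These 3, SNORD3B-1 and the RF00017 gene on chromosome X (1.38, 2.30 and 1.63 FPKM in libraries 1, 2 and 9) passed the threshold through 1 side, so a difference between sides was built in and no test is given. In all, 12 members passed through treated and 3 through solvent libraries only.

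RN7SL731P, in an exon of the kinesin gene KIF1B with all windows shared, ran from 0.04 to 14.1 FPKM and no more than 11 fragments. In the solvent libraries at 16 h it was at 9.65 and 1.24 FPKM, and in the 24 h libraries at 0.18, 9.59, 14.1, 13.5, 12.5 and 12.8. RF01891, in an exon of the long noncoding RNA TUG1, was at 0 in 4 libraries and at 3.78 to 27.8 FPKM in the other 8, on at most 4.8 fragments. Neither was called in a comparison with solvent.

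Over the whole list, 10 members were called with 20 nM at 16 h (3 higher and 7 lower), which is 18.9% of 53, against 17.7% of all 13458 genes tested (6.78% higher and 11% lower). With 100 nM at 16 h it was 9 (2 and 7), or 17.0% against 23.8% (9.16% and 14.7%). At 24 h 6 members (2 and 4) were called with 20 nM, 11.3% against 28.8% (14.7% and 14.1%), and 5 (2 and 3) with 100 nM, 9.43% against 33.8% (15.4% and 18.4%). Members passing through 1 side made up 3, 2, 0 and 2 of these counts, and BCYRN1 and RF02164, not read because of their zeros, 1, 1, 2 and 1. SNORD17 and SCARNA2 at 16 h and RN7SL608P with 20 nM at 24 h are counted too, though the filter built in or favoured their difference. With a minimum of 5 FPKM, which leaves 16 members tested, 37.5%, 37.5%, 25% and 18.8% were called, against 22.9%, 29.2%, 35.7% and 40.8% of 9950 genes. With 100 nM at 16 h, whether the members' share lies above or below that of all genes thus depends on the filter. With 20 nM at 16 h the members' share was above under both filters, but below with a pseudocount of 0.1 (11.3% against 17.7%). The split of all called genes also depends on the scaling: the part that was higher was 38.2%, 38.5%, 51.1% and 45.6% as deposited, 38.3%, 27.7%, 10.8% and 23.5% after scaling to a common sum, 39.5%, 36.4%, 33.8% and 30.2% with that sum over nuclear protein-coding genes, and 50.4%, 50.4%, 51.4% and 54.1% with median-of-ratios scaling. The members' own split was the same after scaling to a common sum. The median log2 change of the members was 0.00 in each of the 4, that of all genes -0.03 to 0.00. Groups of 2 libraries did not overlap in 17, 14, 11 and 12 of the 53 members, while 63.2%, 62.6%, 62.6% and 69.9% of all genes did not overlap. Values tied at 0 count as overlap, and 38 of the 53 members were at 0 in at least 6 libraries. No difference between members and all genes is read from these figures.

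Across the 4 comparisons, which share solvent libraries within each time, 16 members (30.2%) were called at least once, against 51.4% of all genes, and 37 never. Of the 16, 5 passed through 1 side only and 8 had at most 3.5 fragments in every library. In the mean of the treated groups against the mean of the solvent groups 10 members were called, 3 higher and 7 lower (18.9%, against 42.2% of all genes, 18.6% higher and 23.6% lower), 3 of them through 1 side and 2 of them BCYRN1 and RF02164. Between doses 1 member was called (1.89%, against 3.03% of all genes, 0.884% higher and 2.15% lower), BCYRN1 (adjusted p = 0.00239), through the zeros of libraries 7 and 8. At 16 h its means were 259 ± 249 FPKM with 20 nM and 231 ± 2.05 with 100 nM (SD, n = 2), so no dose difference is read from that call. Between the solvent groups of 24 h and 16 h, 7 members were called, 3 higher and 4 lower (13.2%, against 5.62% of all genes, 3.14% higher and 2.47% lower), of which 4 had at most 3.5 fragments, 2 passed through 1 side and 2 were BCYRN1 and RF02164, at 0 in the solvent libraries of 16 h. The test of the drug effect between times was passed by 7 members, 4 higher and 3 lower at 24 h (13.2%, against 14.3% of all genes, 8.36% higher and 5.97% lower), with the same 2 genes and 2 members of 1 side among them.

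The proteins that these RNAs work with are made from ordinary mRNAs and were well measured. Of 112 list entries (a gene counted in each list that holds it), 17 were higher and 4 lower with 20 nM at 16 h (15.2% and 3.57%, against 6.78% and 11% of all genes). With 100 nM at 16 h it was 20 and 8 (17.9% and 7.14%, against 9.16% and 14.7%), with 20 nM at 24 h 38 and 7 (33.9% and 6.25%, against 14.7% and 14.1%) and with 100 nM at 24 h 44 and 8 (39.3% and 7.14%, against 15.4% and 18.4%). These counts depend on the scaling, and at 24 h strongly: after scaling to a common sum they were 17 and 5, 12 and 12, 4 and 28, and 22 and 14, so with 20 nM at 24 h the balance turned. The genes named below with 100 nM at 24 h kept their call under all 3 other scalings unless said.

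Box H/ACA core proteins bind telomerase RNA as well as guide RNAs. The 6 listed box H/ACA proteins and assembly factors all rose with 100 nM at 24 h (median log2 change 0.29, against -0.02 over all genes). After scaling to a common sum 2 of the 6 did, and with that sum over nuclear protein-coding genes 3. Among them GAR1 rose by 0.42 ± 0.07 (SE, adjusted p = 0.00246, limma) and NAF1, an assembly factor, by 0.31 ± 0.05 (0.00115). DKC1, the pseudouridine synthase, gave 0.14 ± 0.05 (0.0475), a call lost with a common sum of either kind (adjusted p = 0.536 and 0.286). In the 3 other comparisons 2, 2 and 1 of the 6 rose and none fell as deposited, while RF00024 fell in all 4. After scaling to a common sum DKC1 was not called with 100 nM at 16 h (adjusted p = 0.101, limma). Nor was NAF1, the 1 called with 20 nM at 24 h (0.756).

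Of 10 box C/D proteins and assembly factors 6 rose with 100 nM at 24 h and none fell, NOP58 by 0.47 ± 0.05 (adjusted p = 0.000380) and the methyltransferase FBL by 0.27 ± 0.06 (0.0107; 0.0759 after scaling to a common sum, where 4 rose and 1 fell). Of 17 Cajal body and snRNP assembly proteins 9 rose and 1 fell there (5 and 1 with a common sum; all genes 15.4% and 18.4%), WRAP53, which brings guide RNAs to Cajal bodies, by 0.33 ± 0.05 (0.00198), while COIL, the coilin scaffold, fell by 0.23 ± 0.06 (0.0161). Of the 7 proteins of the 7SK complex HEXIM1, the kinase inhibitor, rose with 20 nM and 100 nM at 16 h (0.49 ± 0.05 and 0.33 ± 0.05, adjusted p = 0.000391 and 0.00188) and with 100 nM at 24 h (0.34 ± 0.05, 0.00130). LARP7, which binds the 3′ end of 7SK, gave -0.03 to 0.17 and was not called.

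Of 6 signal recognition particle proteins SRP54, the GTPase that binds signal peptides, fell at 16 h (-0.23 ± 0.04 with 20 nM and -0.34 ± 0.04 with 100 nM, adjusted p = 0.00336 and 0.000325) under every scaling. With 20 nM at 24 h 4 of the 6 were called higher (SRP54, SRP19 and, of the Alu domain, SRP9 and SRP14), but with a common sum none was and 1 was called lower, and SRP54 and SRP9 changed sign (-0.04 and -0.03), so no direction is given there. Of 27 RNA polymerase III subunits and factors 9 rose and 1 fell with 100 nM at 24 h (6 and 2 with a common sum; all genes 15.4% and 18.4%), GTF3C6, a subunit of the initiation factor TFIIIC, by 0.46 ± 0.04 (7.25e-05), while GTF3C3 of the same factor fell by 0.28 ± 0.06 (0.00699). Of 8 proteins reported to bind BC200 RNA, EIF4B fell with 20 nM and 100 nM at 24 h (-0.21 ± 0.03 and -0.31 ± 0.03, adjusted p = 0.00116 and 0.000121), while SYNCRIP rose by 0.27 ± 0.05 with 100 nM (0.00287). Its change with 20 nM at 24 h, 0.26 ± 0.05 (0.00406), was not called with a common sum (0.234).

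Integrator cuts the 3′ ends of polymerase II small nuclear RNAs. Of its 14 subunits INTS5 fell in all 4 comparisons (-0.41 ± 0.06, -0.43 ± 0.06, -0.19 ± 0.06 and -0.32 ± 0.06, adjusted p = 0.00167, 0.000881, 0.0303 and 0.00277, in the order used above), and with 100 nM at 24 h 3 rose and 4 fell (none and 4 with a common sum of either kind). Of 13 factors that tail, trim or degrade small RNAs 4 rose and 1 fell with 100 nM at 24 h, TOE1, a 3′ end trimming nuclease, by 0.42 ± 0.07 (0.00254). With 100 nM at 16 h it gave -0.24 ± 0.07 (adjusted p = 0.0414, and 0.0646 with median-of-ratios scaling). Of 4 Y RNA and vault particle proteins 1 was called with 100 nM at 24 h, PUF60 at 0.18 ± 0.06 (0.0343), and not with a common sum of either kind (0.281 and 0.103).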

How the data were processed

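Poly(A)-selected RNA of HCT116 cells was sequenced in paired ends. The authors deposited FPKM per gene with 2 decimals. RSEM 1.2.28 and GRCh38 are named per the submitters' processing notes. For the strand setting, aligner and annotation release, the authors' choice is not given in the sources used here. Overlapping and antisense genes and near-identical copies, among which fragments are divided, are thus uncertain. The columns name the group but no sample number of the labels.

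GENCODE 29 gave types, lengths and places for 57836 rows by identifier, and 338 were not matched. Genes with at least 1 FPKM in at least 2 libraries (13458) were tested on log2(FPKM + 1), which understates change in low genes. Group means of the 6 groups were fitted over 12 libraries with limma 3.58.1 (R 4.3.3) and a mean-dependent prior (6 residual and 2.98 prior degrees of freedom). Tests were two-sided with Benjamini-Hochberg adjustment over all tested genes, called under 0.05. Fragment lengths and totals were fitted to low values of non-member genes of 190 to 600 bases with 1 transcript (Python 3.11.15, scipy 1.17.1). Both fits were tested on simulated data. Sequences are GENCODE 29 transcripts, aligned with biopython 1.88. Fragment intervals cover counting error only.

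Named with values were the 6 members of highest median FPKM in each type, members called in at least 2 comparisons with solvent or in their mean, called members whose libraries did not overlap (up to 10 in each direction of each comparison), BCYRN1 and host genes; others were named after their values were seen. Listed proteins shown as examples were chosen among the called ones. The members and lists were chosen with earlier results of these data known. Alternatives were pseudocounts of 0.1 and 0.5, no filter, a minimum of 5 FPKM, 3 other scalings, 2 other priors, and leaving out each library.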

Additional observations from a re-analysis of the deposited data

Results flagged for a closer look

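For 5 members that reached 1 FPKM on both sides, the test of the mean drug effect at 24 h against that at 16 h met the threshold (limma, adjusted over all genes). No size is given, since libraries listed at 0 enter each. SCARNA2 would not have passed the filter without the treated libraries of 16 h, so no change is read from it. BCYRN1 (adjusted p = 3.35e-05) met the threshold through zeros in libraries where its effective length is below 1, which give no measure. RF02164 (0.0183) met it through such zeros and through that of library 10, where its effective length was 1.16. No change between times is read from either, and the second was also lost without library 5, 6, 11 or 12. SNORD17 (adjusted p = 0.0424), on at most 2 fragments per library, would not have passed the filter without the solvent pair of 16 h, so no change is read. Its call was lost in 10 of 12 fits without 1 library and in 3 of 9 other settings. RF00017 in WDR73 (0.0338), on at most 3.5 fragments, was lost in 7 of 12 (up to 0.113), and SCARNA2 (0.0439), on at most 11 fragments, in 8 of 12 (up to 0.146).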

How the results depend on the processing

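No paired analysis was possible because the columns carry no sample number of the labels. Counts of called members changed with how low values were treated; a minimum of 5 FPKM leaves 16 of 53 members tested. For 20 nM at 16 h (10) it was 6 with a pseudocount of 0.1, 5 with no filter and 6 (of 16 tested, 37.5% against 18.9%) with a minimum of 5 FPKM. For 20 nM at 24 h (6) it was 3 with no filter, for 100 nM at 24 h (5) 3 with a minimum of 5 FPKM, and for the solvent groups (7) 4 with no filter. For the difference of drug effects between times (7) it was 3 with a pseudocount of 0.1, 3 with no filter and 4 with a minimum of 5 FPKM. Leaving out 1 library gave 2 to 10 calls for 20 nM at 16 h, 4 to 12 for 100 nM at 16 h, 3 to 9 for 20 nM at 24 h, 3 to 7 for 100 nM at 24 h, 7 to 12 for the mean of the treated groups, 2 to 8 for the difference between times, 1 to 3 between doses and 2 to 8 between solvent groups. The lowest counts at 16 h came without library 5 (2 and 4), at 24 h without library 12 (20 nM, 3) and without 9 or 11 (100 nM, 3). The cause was not tested. Of 41 calls of members that passed on both sides, 19 held in every other setting in which the member was tested, and 0 reversed direction. For RF00017 on chromosome 11 with 20 nM at 24 h those were 8 of the 9 settings. Not all of the 19 also held in each fit without 1 library. Among the 19 were every call of BCYRN1 and the RF02164 calls of both doses at 24 h. Those calls set libraries at 0 against libraries above it, and no change is read from them. SNORD17 with 100 nM at 16 h, whose difference the filter built in, was among them too. Scaling to a common sum moved the median of all genes by -0.17 (20 nM at 24 h) and -0.11 (difference between times). Fragments limit what can be read: 40 of 50 members had under 20 over all 12 libraries.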

Other observations

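Beyond the 5 gene types, 2 ribozyme RNAs, RMRP and RPPH1, also lack a long poly(A) tail. RMRP, the RNA of the mitochondrial RNA processing endonuclease, was at 14.2 to 29.5 FPKM in the 6 libraries of 16 h and at 0 to 11.3 FPKM in those of 24 h. RPPH1, the RNA of RNase P, was at 5.75 to 16.5 FPKM at 16 h and at 0.92 to 8.24 FPKM at 24 h. The 24 h libraries were all below the 16 h libraries for RMRP, and the ranges overlapped for RPPH1. In both, values of treated and solvent libraries overlapped at 16 h, and no comparison with solvent passed (RMRP with 20 nM and 100 nM at 16 h: adjusted p = 0.861 and 0.992, limma; RPPH1: 0.544 and 0.530).

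A gene that is short and abundant shows the same scale at its other end. MT-ATP8, a subunit of the mitochondrial ATP synthase of 207 bases, held 7.31% to 12.5% of the FPKM sum of a library. With an estimated effective length of 1.02 to 2.02 bases, that share stood for an estimated 3165 to 7216 fragments, or 0.0099% to 0.0175% of a library. It was highest in FPKM in libraries 7 and 8 (20 nM at 24 h), where the log2 change against solvent was 0.79 ± 0.10 (SE, adjusted p = 0.000903), while their estimated fragments, 4037 and 5456, were 0.0122% and 0.0161% of those libraries, against 0.0131% and 0.0123% in solvent.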
